A study of Homo sapiens with 4 samples.

Results

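The genes of polyamine synthesis and turnover comprised 10 of the 57979 genes in the expression table of a TXNDC9 knockout study. They were the biosynthetic enzymes ODC1, AMD1, SRM and SMS, the regulators OAZ1, OAZ2 and AZIN1, and the catabolic enzymes SAT1, SMOX and PAOX. The genes were chosen by name, as the members of a pathway, and each was read from the row that carried its symbol. The only measured value in that choice was the mean level, which would have decided between rows of a repeated symbol, and 0 of the 10 symbols repeated. Since the fall of SRM in these libraries was known when the pathway was picked, its values are given as a description and not as independent evidence about the pathway.

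The study sequenced polyadenylated RNA from cells labelled HepG2, a human liver cancer line, to ask which genes depend on TXNDC9, a thioredoxin domain protein of the cytosol. There were 2 wild-type (WT) libraries and 2 TXNDC9 knockout (TXNDC9-KO) libraries, all from cells grown in DMEM with fetal bovine serum and with no other treatment given in the labels. The knockout was made with CRISPR-Cas9 from the lentiCRISPRv2 plasmid, with sgRNAs against the first exon of TXNDC9. For its protein blots the study sorted infected HepG2 cells, with vector alone as the control, and it does not say whether the sequenced cells, whose controls are labelled wild type, were these. The methods name alternative sgRNAs and do not say which one the sequenced cells carried, so an effect of the guide cannot be told apart from the loss of TXNDC9. Legends on single genes mention independent experiments, but in a number other than that of the libraries here, and the labels do not say that the libraries of a group came from separate cultures. The p-values therefore measure only the spread between these libraries, which may be technical.

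Polyamines are small positively charged molecules that bind nucleic acids and are needed for growth. Ornithine decarboxylase (ODC1) makes putrescine, S-adenosylmethionine decarboxylase (AMD1) provides aminopropyl groups, spermidine synthase (SRM) and spermine synthase (SMS) add these groups in turn, and antizymes (OAZ1, OAZ2) send ODC1 protein to the proteasome unless the antizyme inhibitor AZIN1 binds them instead. Spermine goes back to spermidine through spermine oxidase (SMOX), or through acetylation by SAT1 followed by the acetylpolyamine oxidase PAOX. The genes of synthesis are well-known targets of the transcription factor MYC, and the liver has long been used to study their induction during regeneration.

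Expression was in FPKM, the number of sequenced fragments of a gene relative to its transcript length and to all mapped fragments of the library. They summed to 805815.9 and 971102.2 in the WT libraries and to 535973.4 and 568279.5 in the TXNDC9-KO libraries. These sums are not read totals, and the depth of the libraries is unknown. The 10 hepatocyte markers ALB, AFP, APOA1, APOA2, APOB, TTR, SERPINA1, FGB, FGA and HNF4A were under 0.5 FPKM in every library, the highest being AFP at 0.449 FPKM in WT replicate 2. The labelled HepG2 identity was therefore not supported by these markers, and the cells are called by their labels only as WT and TXNDC9-KO. Of the leukocyte markers, PTPRC did not exceed 0.192 FPKM, CD3E was listed at 0, and CD68 lay between 3.38 and 6.90 FPKM. Of the endothelial markers, PECAM1 and VWF did not exceed 0.261 FPKM, while CDH5 was 0.751 and 1.07 FPKM in WT and 4.26 and 3.14 FPKM in TXNDC9-KO. Of the fibroblast markers, COL1A1 was 31.5 and 22.8 FPKM in WT and 20.7 and 17.5 FPKM in TXNDC9-KO, COL3A1 was 19.4 and 24.0 against 13.4 and 13.1 FPKM, and LUM and DCN did not exceed 1.37 FPKM. The part of CDH5, COL1A1 and COL3A1 in the values below was not tested.

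The targeted gene, TXNDC9 (ENSG00000115514), was 35.1 and 37.3 FPKM in the WT libraries and 21.9 and 27.6 FPKM in the TXNDC9-KO libraries. Both TXNDC9-KO values lay below both WT values, with a difference of −0.55 on the log2 scale (standard error 0.14, limma, Benjamini-Hochberg adjusted p = 0.0145), which did not pass the threshold and became 0.12 when libraries were rescaled to the same sum (TPM). By western blot the study reported reduced TXNDC9 protein in its sorted HepG2 cells. These libraries measure mRNA and not protein. TXNDC9 overlaps EIF5B on the opposite strand, which was 56.6 and 83.6 FPKM in WT and 32.8 and 35.4 FPKM in TXNDC9-KO, and the use of strand in counting is not stated.

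Among the polyamine genes, SRM, SMOX and OAZ1 fell in the TXNDC9-KO libraries and AZIN1 rose, by at least 2-fold and with a Benjamini-Hochberg adjusted p under 0.01 in limma over all 13246 genes with a mean above 1 FPKM. In this test 15.3% of all tested genes were called lower and 14.2% higher, against 3 and 1 of the 9 polyamine genes that were tested. PAOX was not tested because its mean was under 1 FPKM, and the other 9 exceeded that level in every library of both groups. Both TXNDC9-KO libraries lay below both WT libraries for 6 of the 9 genes and above them for 3, where 45.9% and 40.1% of all tested genes did so. The median log2 fold change of the 9 genes was −0.25, beside −0.09 over all tested genes. Lower RNA per cell and fewer cells of a kind cannot be told apart in such bulk libraries.

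**Figure D1:**
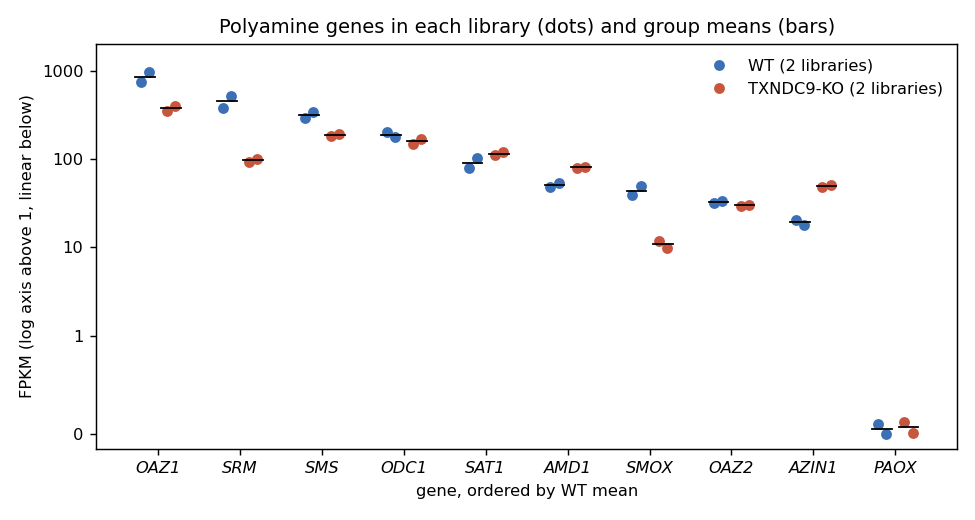
FPKM of the 10 polyamine genes (y axis, logarithmic above 1 and linear below) in each library, with blue dots for the 2 WT and red dots for the 2 TXNDC9-KO libraries, bars for the group means, and genes in order of WT mean. SRM, SMOX and OAZ1 stand lower and AZIN1 higher in the TXNDC9-KO libraries, while the PAOX dots of both groups lie near 0 and overlap.

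The sizes of these differences, and the signs of ODC1 and OAZ2, depended on how the libraries were brought to one scale. Rescaling to TPM moved the median over all tested genes from −0.09 to 0.59 on the log2 scale, and the calls from 2021 lower and 1885 higher genes (48.3% of calls higher) to 447 lower and 4380 higher (90.7% higher). Centring each library on its median gave 2601 lower and 1452 higher genes (35.8% higher). Log2 fold changes also followed transcript length (Spearman correlation 0.495) and GC content (−0.462) across 13112 genes, which are not independent replicates and share the same 4 libraries. SRM and SMOX remained called lower under TPM, centring and a correction of each library for length and GC content. The fall of OAZ1 was called on the deposited scale and after centring only, and the rise of AZIN1 on the deposited scale, after centring and under TPM. Without either TXNDC9-KO library, limma with Benjamini-Hochberg adjustment called 0 of the 13246 genes, where 3670 lower and 3459 higher genes had an unadjusted p under 0.05 without replicate 1 and 4013 and 3294 without replicate 2. The adjusted p of SRM, SMOX and AZIN1 was then 0.0237 without TXNDC9-KO replicate 1 and 0.0232 without replicate 2, and that of OAZ1 0.0794 and 0.0529.

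**Figure D2:**
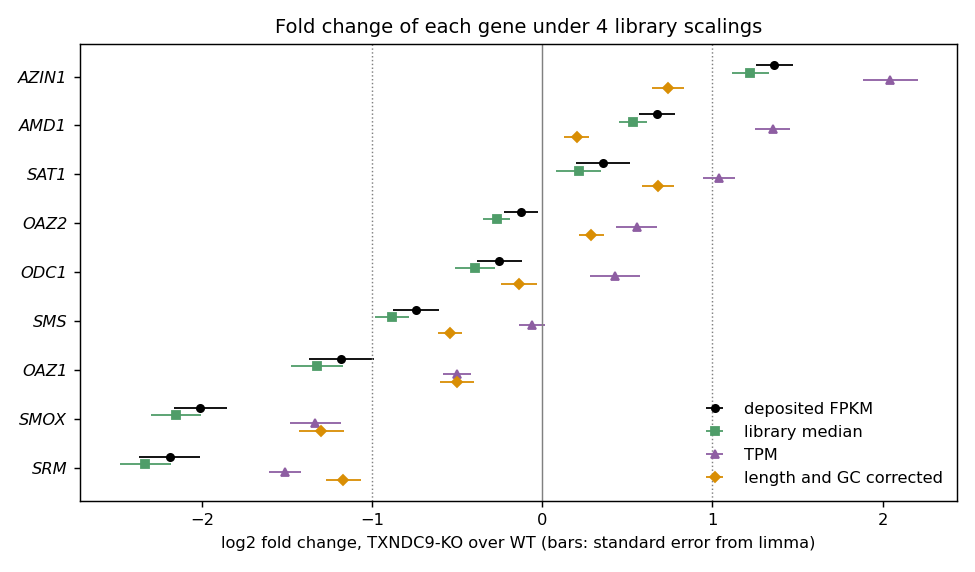
Log2 fold change of TXNDC9-KO over WT (x axis) for the 9 tested polyamine genes (y axis) under 4 library scalings, with bars for the standard error from limma and dotted lines at a fold change of 2. SRM, SMOX and OAZ1 lie below 0 and AZIN1, AMD1 and SAT1 above 0 under each scaling, while ODC1 and OAZ2 stand on the other side of 0 under TPM, and OAZ2 also after the length and GC correction.

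Of the enzymes that build polyamines, SRM changed most. SRM (ENSG00000116649, chromosome 1 from 11054584 to 11060020 in hg38, minus strand) has 8 exons in its canonical transcript of 1260 nt. It was 377.8 and 519.3 FPKM in the WT libraries and 93.1 and 101.1 FPKM in the TXNDC9-KO libraries. The highest TXNDC9-KO value was well under the lowest WT value, and the WT libraries differed from each other by 1.37-fold. The mean went from 449 FPKM, with an SD of 22.3% of the mean, to 97.1 FPKM, with an SD of 5.83% (n = 2 each), a 4.56-fold fall. It amounted to −2.19 on the log2 scale (standard error 0.18, 95% interval −2.63 to −1.74, limma, Benjamini-Hochberg adjusted p = 5.50e-04). It was −2.33 after centring, −1.51 under TPM and −1.17 after the length and GC correction, and over the filtered fits with 4 libraries the adjusted p lay between 8.04e-06 and 0.00247. Its pseudogenes SRMP1, SRMP2 and SRMP3 were listed at 0 in all libraries.

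MYC and its partners bind the E-box CACGTG, and SRM and ODC1 carried it near a listed start site. Those stretches are shown with the E-box in capitals. The sequences come from RefSeq on GRCh38.p14, read 5′ to 3′ on the gene's strand. For SRM the 250 bases before the start site (chr1:11060019-11060268, minus strand) are given, with the E-box beginning 199 bases before the start. For ODC1 the 30 bases around each of its E-boxes are given (chr2:10448024-10448053 and chr2:10447990-10448019, minus strand), the first beginning 29 bases before the start site at 10448012 and the second at base 6 after it. ODC1 has another listed start site at 10448327, the end of the gene position given below, and its window held 0 E-boxes.
SRM: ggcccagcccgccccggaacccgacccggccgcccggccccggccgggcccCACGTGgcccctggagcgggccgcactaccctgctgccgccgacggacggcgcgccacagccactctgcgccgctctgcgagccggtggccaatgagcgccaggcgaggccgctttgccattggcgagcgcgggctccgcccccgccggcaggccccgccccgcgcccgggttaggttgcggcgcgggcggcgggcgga
ODC1 first: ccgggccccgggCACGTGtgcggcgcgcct
ODC1 second: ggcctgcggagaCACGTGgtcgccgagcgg
Start-site windows of 300 bases, reaching from 250 bases before the start to 50 after it, were at hand for 7 of the 10 genes, and those of SMS, AMD1, OAZ1, OAZ2 and SAT1 did not hold these letters. CACGTG reads the same on both strands and was found in 7.26% of 35116 such windows. Of 1178 tested genes with the E-box in a window, 15.1% were called lower and 14.8% higher, and of 7836 without it 14.6% and 14.4%. SRM and ODC1, the genes with the E-box among the 7 with a window, had log2 fold changes of −2.19 and −0.25. AZIN1, SMOX and PAOX had no window, so whether they carry the E-box is unknown. A match of letters is a description and not evidence of binding.

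SMS (ENSG00000102172, chromosome X from 21940709 to 21994837, plus strand), which turns spermidine into spermine, was 292.3 and 341.7 FPKM in WT and 184.4 and 194.2 FPKM in TXNDC9-KO. The groups did not overlap. On the log2 scale SMS differed by −0.74 (standard error 0.13, 95% interval −1.07 to −0.41, limma, Benjamini-Hochberg adjusted p = 0.00447), a 1.67-fold difference that did not reach the 2-fold threshold. Under TPM it was −0.06 and after the length and GC correction −0.54. The paralogous aminopropyl transferases SRM and SMS thus stood in another order in the groups, SRM above SMS in both WT libraries and SMS above SRM in both TXNDC9-KO libraries.

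ODC1 (ENSG00000115758, chromosome 2 from 10439968 to 10448327, minus strand), the rate-limiting enzyme of putrescine synthesis, was 199.6 and 178.5 FPKM in WT and 148.1 and 169.8 FPKM in TXNDC9-KO. The TXNDC9-KO values were the lower ones, yet the nearest libraries of the groups stood close together. On the log2 scale ODC1 differed by −0.25 (standard error 0.13, 95% interval −0.58 to 0.08, limma, Benjamini-Hochberg adjusted p = 0.140), and it turned to 0.43 under TPM. A change was therefore not established in either direction.

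AMD1 (ENSG00000123505, chromosome 6 from 110874770 to 110898879, plus strand), which decarboxylates S-adenosylmethionine, was 47.9 and 53.0 FPKM in WT and 79.1 and 82.0 FPKM in TXNDC9-KO. Both TXNDC9-KO values were higher than both WT values, by 1.60-fold in the fit. On the log2 scale AMD1 differed by 0.68 (standard error 0.11, 95% interval 0.41 to 0.94, limma, Benjamini-Hochberg adjusted p = 0.00278), under the fold threshold. AMD1 was called higher only under TPM, at 1.36, and after the length and GC correction the difference was 0.20 with an adjusted p of 0.0643. Its pseudogenes AMD1P3 and AMD1P4 did not exceed 0.352 FPKM.

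Of the regulators of ODC1, the antizyme OAZ1 fell and the antizyme inhibitor AZIN1 rose. Antizyme is made only when the ribosome slips by a base at the stop codon of a first short reading frame, a step that polyamines promote and that mRNA levels do not show. The 30 bases around that site are shown because they are the shared regulatory element of the antizyme genes, with the last codon before the slip and the stop codon in capitals (OAZ1, chr19:2271428-2271457 of hg38, plus strand, and OAZ2, chr15:64691501-64691530, minus strand).
OAZ1: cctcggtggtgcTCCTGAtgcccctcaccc
OAZ2: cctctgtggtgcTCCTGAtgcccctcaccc
The stretches had the same base at 29 of 30 positions.

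OAZ1 (ENSG00000104904, chromosome 19 from 2269509 to 2273490, plus strand) was the most abundant of the 10 mRNAs in both groups. It was 734.1 and 975.2 FPKM in WT and 347.6 and 400.9 FPKM in TXNDC9-KO. The groups were apart, with WT replicate 2 the highest library. The fall of OAZ1 was −1.18 on the log2 scale (standard error 0.19, 95% interval −1.65 to −0.71, limma, Benjamini-Hochberg adjusted p = 0.00295), a 2.27-fold fall. Without WT replicate 2 it was −0.98, under the fold threshold. It was −0.50 both under TPM and after the length and GC correction, and OAZ1 was called in neither.

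OAZ2 (ENSG00000180304, chromosome 15 from 64687573 to 64703281, minus strand), a less abundant antizyme, was 31.6 and 33.5 FPKM in WT and 29.4 and 30.3 FPKM in TXNDC9-KO. The groups lay side by side without overlap. OAZ2 differed by −0.12 on the log2 scale (standard error 0.10, 95% interval −0.37 to 0.12, limma, Benjamini-Hochberg adjusted p = 0.297), and it was positive under TPM, at 0.55, and after the length and GC correction, at 0.29. Its interval did not reach the value of OAZ1, and the difference between the antizymes was not fitted as a term of its own.

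AZIN1 (ENSG00000155096, chromosome 8 from 102826111 to 102893864, minus strand), which binds antizyme and so spares ODC1 protein, was 20.4 and 18.1 FPKM in WT and 48.3 and 51.0 FPKM in TXNDC9-KO. Both TXNDC9-KO libraries exceeded both WT libraries, and the replicates of a group differed by at most 1.12-fold. The mean went from 19.3 ± 1.58 FPKM to 49.7 ± 1.87 FPKM (SD, n = 2 each). The rise of AZIN1 was 1.36 on the log2 scale (standard error 0.11, 95% interval 1.10 to 1.63, limma, Benjamini-Hochberg adjusted p = 5.38e-04), a 2.58-fold rise. It was 2.05 under TPM and 1.22 after centring, and 0.74 after the length and GC correction, where AZIN1 was not called although its adjusted p was 0.00288. The gene overlaps the long noncoding RNA gene MAILR on the opposite strand, which was 4.64 and 8.15 FPKM in WT and 3.14 and 2.02 FPKM in TXNDC9-KO.

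Of the catabolic enzymes, SMOX fell and SAT1 did not pass the test. SMOX (ENSG00000088826, chromosome 20 from 4120980 to 4187747, plus strand), which oxidises spermine to spermidine and releases hydrogen peroxide, was 38.8 and 49.1 FPKM in WT and 11.7 and 9.89 FPKM in TXNDC9-KO. The TXNDC9-KO libraries were far below the WT libraries. The mean went from 43.96 ± 7.32 FPKM to 10.8 ± 1.31 FPKM (SD, n = 2 each), a 4.02-fold fall. For SMOX the log2 fold change was −2.01 (standard error 0.16, 95% interval −2.39 to −1.62, limma, Benjamini-Hochberg adjusted p = 5.38e-04). It was −2.15 after centring, −1.33 under TPM and −1.30 after the length and GC correction, and over the filtered fits with 4 libraries the adjusted p lay between 1.36e-05 and 0.00247.

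SAT1 (ENSG00000130066, chromosome X from 23783173 to 23786210, plus strand), the acetyltransferase that commits spermidine and spermine to breakdown or export, was 78.2 and 103.1 FPKM in WT and 110.3 and 120.2 FPKM in TXNDC9-KO. WT replicate 2 lay close to TXNDC9-KO replicate 1. For SAT1 the log2 fold change was 0.36 (standard error 0.16, 95% interval −0.04 to 0.76, limma, Benjamini-Hochberg adjusted p = 0.0927). SAT1 was called higher only under TPM, at 1.04, and was at 0.68 after the length and GC correction, where limma gave an adjusted p of 0.00348 and the fold stayed under the threshold. Its value was 0.16 without WT replicate 1 and 0.56 without WT replicate 2.

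PAOX (ENSG00000148832, chromosome 10 from 133379261 to 133391694, plus strand), the peroxisomal oxidase of acetylated polyamines, was 0.0978 and 0 FPKM in WT and 0.121 and 0.0151 FPKM in TXNDC9-KO. The groups overlapped near 0, and no fold is given. The SAT1 mRNA was thus present in all libraries while that of the oxidase acting after it was barely detected in these polyadenylated libraries.

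The order of the mRNA levels within a group, on the FPKM scale that accounts for transcript length, was not the same in WT and TXNDC9-KO. In WT it ran OAZ1, SRM, SMS, ODC1, SAT1, AMD1, SMOX, OAZ2, AZIN1 and PAOX, and of the neighbours only AMD1 and SMOX had libraries that overlapped with each other. In TXNDC9-KO it ran OAZ1, SMS, ODC1, SAT1, SRM, AMD1, AZIN1, OAZ2, SMOX and PAOX, and the libraries of all neighbours were apart. The mean level of SRM exceeded that of 97.7% of tested genes in WT and 92.6% in TXNDC9-KO. The corresponding shares were 61.3% and 84.3% for AZIN1 and 78.0% and 45.5% for SMOX, so these genes changed places while OAZ1 kept the top one with 98.8% and 98.5%.

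Ratios of 2 polyamine genes within a library do not depend on the scale of that library, and are given as log2 ratios of FPKM. With 2 libraries in each group the smallest p of an exact two-sided permutation test is 0.333, and each of the 7 pairs had that value. SRM to SMS, the synthases that act in turn, was 0.37 and 0.60 in WT and −0.99 and −0.94 in TXNDC9-KO. SRM mRNA thus went from the more to the less abundant of the pair, a difference of −1.45 on the log2 scale. AMD1 to SRM, the enzymes that provide and use the aminopropyl group, was −2.98 and −3.29 in WT and −0.24 and −0.30 in TXNDC9-KO, the widest difference of the pairs at 2.87 before any correction. SAT1 to SMOX, the alternative entries into catabolism, was 1.01 and 1.07 in WT and 3.23 and 3.60 in TXNDC9-KO, a difference of 2.38.

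The ratios among ODC1 and its regulators moved in both directions. AZIN1 to OAZ1, the inhibitor over its antizyme, was −5.17 and −5.75 in WT and −2.85 and −2.98 in TXNDC9-KO, a difference of 2.55. ODC1 to OAZ1 was −1.88 and −2.45 in WT and −1.23 and −1.24 in TXNDC9-KO, a difference of 0.93. OAZ1 mRNA thus remained above ODC1 and AZIN1 mRNA in every library, by less in TXNDC9-KO. ODC1 to AZIN1 was 3.29 and 3.30 in WT and 1.61 and 1.74 in TXNDC9-KO, a difference of −1.62. OAZ1 to OAZ2 was 4.54 and 4.86 in WT and 3.56 and 3.72 in TXNDC9-KO, a difference of −1.06. The groups did not overlap for any of the 7 pairs, which share genes. Among single genes, 45.9% of those tested lay below and 40.1% above without overlap. Unlike library scale, transcript length and GC content bear on a ratio, and after the length and GC correction the differences kept their sign but were −0.63 for SRM to SMS, 1.37 for AMD1 to SRM, 1.98 for SAT1 to SMOX, 1.24 for AZIN1 to OAZ1, 0.36 for ODC1 to OAZ1, −0.88 for ODC1 to AZIN1 and −0.79 for OAZ1 to OAZ2.

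**Figure D3:**
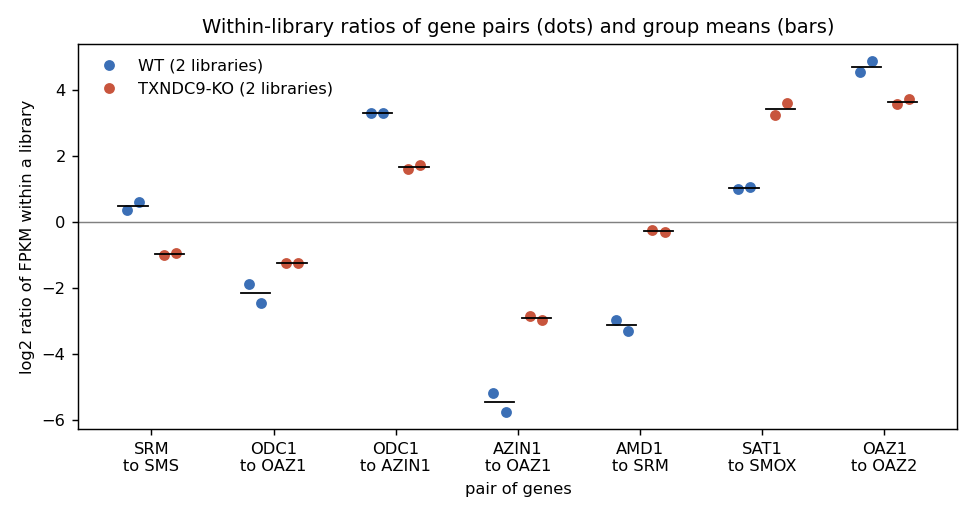
Log2 ratio of FPKM of 7 pairs of polyamine genes (y axis) within each library, with blue dots for the 2 WT and red dots for the 2 TXNDC9-KO libraries and bars for the group means. SRM to SMS crosses 0 between the groups, AMD1 to SRM differs most on this scale, at 2.87, though SAT1 to SMOX does after the length and GC correction, at 1.98, and the groups do not overlap for any pair. Of all tested single genes, 45.9% lie below and 40.1% above without overlap.

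The polyamine genes called lower and higher differed in length and base composition in the direction the table as a whole did. The canonical transcripts of SRM and OAZ1 were 1260 and 1148 nt long with 63.7% and 54.0% GC, and that of SMOX 2164 nt with 60.7% GC. The transcripts of AZIN1 and AMD1 were 4196 and 3423 nt long with 38.0% and 37.9% GC. Over all genes the median was 1433 nt and 57.9% GC among those called lower, 5546 nt and 42.2% GC among those called higher, and 2866.5 nt and 48.5% GC among those tested. SMS, at −0.74, had a transcript of 1703 nt with 44.2% GC, shorter than the tested median but with less GC. SAT1, with the shortest transcript of the 10 at 1049 nt and 43.9% GC, stood above 0 all the same.

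**Figure D4:**
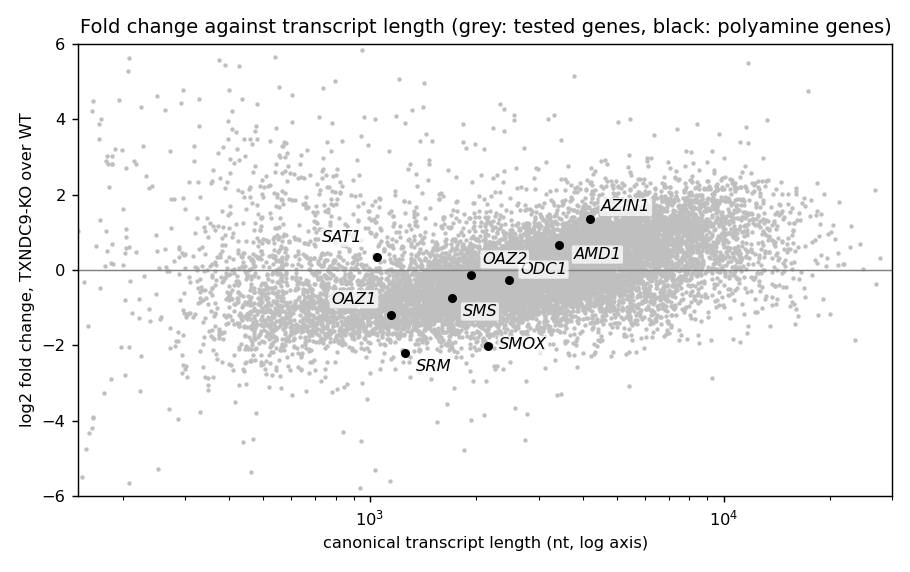
Log2 fold change of TXNDC9-KO over WT (y axis) against canonical transcript length in nt (x axis, logarithmic) for tested genes in grey and the polyamine genes in black, with 18 genes outside the axes. Long transcripts tend to lie higher (Spearman correlation 0.495), SRM lies at 1260 nt and −2.19, and AZIN1 at 4196 nt and 1.36.

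The genes around the pathway were taken from a list of 50, arranged by function and chosen with earlier results of these data known. Of the 41 that were tested, 5 were called lower (12.2%) and 3 higher (7.32%), beside 15.3% and 14.2% of all tested genes, so neither share exceeded that of the table. Their median was −0.23 on the log2 scale, beside −0.09 over all tested genes. Under TPM 0 were called lower and 9 higher, beside 3.4% and 33.1% of all tested genes under that scaling. The single members named are those called and the most abundant pair of each role.

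The hypusine genes use spermidine to modify the translation factor EIF5A, and 2 of the 4 fell, where 15.3% of all tested genes did. Both TXNDC9-KO libraries lay below both WT libraries for all 4, as they did for 45.9% of all tested genes. EIF5A, the modified factor itself, was 1765 and 2099 FPKM in WT and 909.9 and 967.2 FPKM in TXNDC9-KO, with a log2 fold change of −1.04 (limma, Benjamini-Hochberg adjusted p = 0.00391). DOHH, which completes the modification, was 51.8 and 53.4 FPKM in WT and 20.3 and 20.2 FPKM in TXNDC9-KO, with a log2 fold change of −1.37 (limma, Benjamini-Hochberg adjusted p = 5.12e-04). DHPS, which transfers the spermidine moiety, was 63.6 and 68.96 FPKM against 32.7 and 37.9 FPKM, at −0.91 and under the fold threshold. After the length and GC correction EIF5A was at −0.26, DOHH at −0.34 and DHPS at −0.10, and none of these was called. EIF5A2, a less abundant relative of EIF5A, was 2.38 and 2.76 FPKM in WT and 2.27 and 2.08 FPKM in TXNDC9-KO. It differed by −0.23 on the log2 scale and was not called, but after the correction it was at −1.18 (limma, Benjamini-Hochberg adjusted p = 0.00456) and was the 1 gene of the list called lower. EIF5A overlaps GPS2 and DHPS overlaps WDR83 on the opposite strand, and both neighbours were also lower in TXNDC9-KO, GPS2 at 136.9 and 162.9 against 43.1 and 50.8 FPKM and WDR83 at 26.1 and 32.9 against 7.62 and 7.81 FPKM.

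Among the 13 transport genes 10 were tested, and the related P5-type ATPases moved in opposite directions. ATP13A3, a polyamine transporter of the endosomal system, was 23.5 and 22.4 FPKM in WT and 61.4 and 63.9 FPKM in TXNDC9-KO, a rise of 1.44 on the log2 scale (limma, Benjamini-Hochberg adjusted p = 5.12e-04). ATP13A2, which exports polyamines from lysosomes, was 26.0 and 30.2 FPKM in WT and 12.1 and 10.5 FPKM in TXNDC9-KO, with a log2 fold change of −1.31 (limma, Benjamini-Hochberg adjusted p = 7.13e-04). The ATPases were close in WT and far apart in TXNDC9-KO, and their signs held under TPM (2.12 and −0.63) and after the length and GC correction (0.48 and −0.82), where neither was called. SLC3A2, the heavy chain of amino acid exchangers linked to polyamine export, was 687.9 and 811.3 against 376.1 and 406.2 FPKM, and its partner SLC7A5 556.8 and 543.8 against 375.5 and 396.8 FPKM, at −0.93 and −0.51 and not called.

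Among the genes that supply the substrates, 1 of 7 tested genes of ornithine supply and 1 of 9 of methionine use and salvage rose, shares close to the 14.2% of all tested genes, and 0 fell in limma with Benjamini-Hochberg adjustment, with 3 more in each role under an adjusted p of 0.01 but not past 2-fold. Those of ornithine supply, OAT, SLC7A1 and SLC25A15, were higher in TXNDC9-KO. Those of methionine use and salvage, AHCY among them, went in both directions. Among all 7 tested genes of ornithine supply, 5 lay above WT without overlap and 2 below. Of all tested genes, 40.1% lay above and 45.9% below. SLC7A2, a carrier of cationic amino acids, was 1.36 and 1.65 FPKM in WT and 5.22 and 4.94 FPKM in TXNDC9-KO, with a log2 fold change of 1.70 (limma, Benjamini-Hochberg adjusted p = 8.09e-04). MAT2A, which makes S-adenosylmethionine, was 118.6 and 88.0 FPKM in WT and 217.1 and 230.0 FPKM in TXNDC9-KO, with a log2 fold change of 1.13 (limma, Benjamini-Hochberg adjusted p = 0.00220). MAT2A was still called higher after the length and GC correction, at 1.04, whereas SLC7A2 was at 0.80 and not called. MAT2A overlaps GGCX on the opposite strand, which was 30.4 and 42.4 FPKM in WT and 25.6 and 26.2 FPKM in TXNDC9-KO. ALDH18A1 and OAT, enzymes at the branch between glutamate, proline and ornithine, were at −0.17 and 0.48, and AHCY, which clears S-adenosylhomocysteine, at −0.72, all under the fold threshold.

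Of the 6 further genes of catabolism and regulation 5 were tested, and SAT2 and PMF1 fell, where 15.3% of all tested genes did. SAT2, a relative of SAT1 whose main substrate is thialysine rather than polyamines, was 77.7 and 102.8 FPKM in WT and 38.4 and 35.5 FPKM in TXNDC9-KO, with a log2 fold change of −1.27 (limma, Benjamini-Hochberg adjusted p = 0.00123). PMF1, a kinetochore protein also known as a polyamine-responsive cofactor of SAT1 transcription, was 155.2 and 199.2 FPKM in WT and 58.5 and 63.7 FPKM in TXNDC9-KO, with a log2 fold change of −1.53 (limma, Benjamini-Hochberg adjusted p = 7.28e-04). SAT1 itself, at 0.36, did not pass the test. After the length and GC correction SAT2 was at −0.55 and PMF1 at −0.75, and neither was called. PMF1 shares exons with the readthrough gene PMF1-BGLAP, which was 12.4 and 14.4 FPKM in WT and 5.21 and 7.41 FPKM in TXNDC9-KO, so the reads of the pair may be divided between them. NQO1, a quinone reductase that binds ODC1 protein, was 329.9 and 388.4 FPKM in WT and 296.4 and 359.1 FPKM in TXNDC9-KO, and its groups overlapped.

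Of the 6 genes around MYC, 0 were called in either direction by limma with Benjamini-Hochberg adjustment, where 15.3% of all tested genes were called lower and 14.2% higher. In the same test 2 of the 6 had an adjusted p under 0.01 but did not reach the fold threshold. MYC was 175.4 and 167.9 FPKM in WT and 129.0 and 130.1 FPKM in TXNDC9-KO, a difference of −0.41 on the log2 scale (limma, Benjamini-Hochberg adjusted p = 0.0181) that became 0.28 under TPM and −0.60 after the length and GC correction (adjusted p = 0.00236 in limma, under the fold threshold). MAZ was 187.9 and 156.9 FPKM in WT and 117.9 and 100.5 FPKM in TXNDC9-KO, a difference of −0.66 that became 0.02 under TPM and 0.19 after the correction. Set beside them, the log2 fold change of SRM kept its sign under TPM and that of ODC1 did not. For MYC the study reported a slight effect on mRNA but reduced protein by western blot. It also reported less MYC bound at target genes by ChIP-qPCR. MYC protein and its binding are not measured by these libraries.

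**Figure D5:**
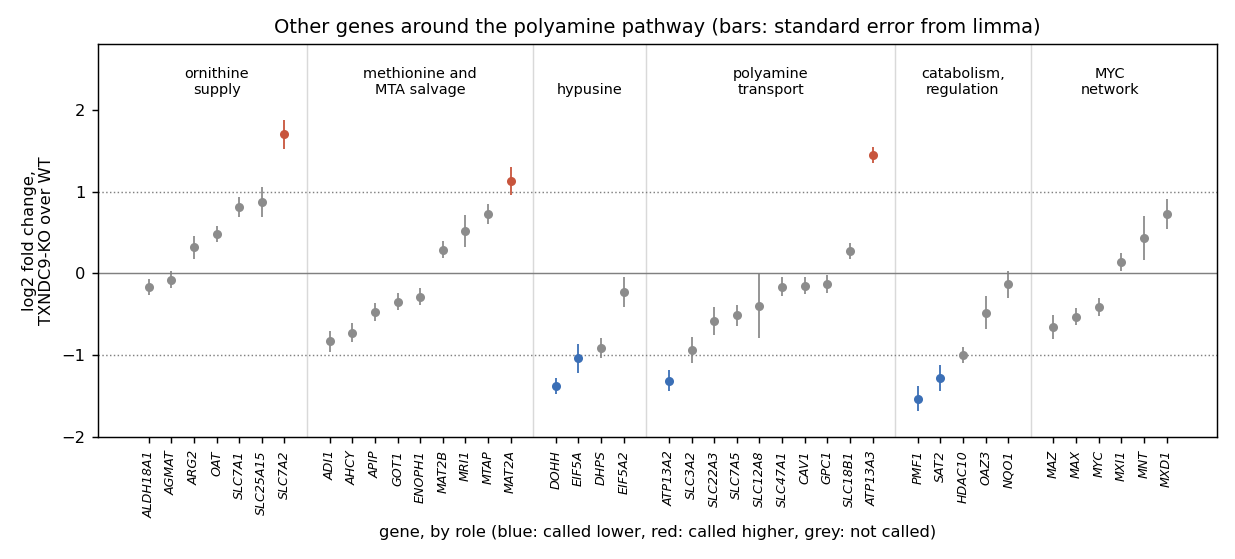
Log2 fold change of TXNDC9-KO over WT (y axis) of the 41 tested genes around the polyamine pathway, grouped by role along the x axis, with bars for the standard error from limma, dotted lines at a fold change of 2, blue for genes called lower, red for genes called higher and grey for the rest. The 5 lower genes are DOHH, EIF5A, ATP13A2, PMF1 and SAT2, and the 3 higher ones SLC7A2, MAT2A and ATP13A3.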

How the data were processed

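The authors mapped reads to hg38 with TopHat2 and an Ensembl annotation and deposited 1 FPKM value from Cuffdiff (Cufflinks) for each gene in each library; versions, library normalization and strand use are not given in the sources used here. The deposited group averages served only to check the table. The columns with the authors' own fold changes, p-values and q-values were not used. The table had 231916 lines, 57979 of them with values. Each identifier occurred 4 times, out of register with the symbols, and was put back in order. Of the identifiers, 56935 were in GENCODE release 44, which gave positions, overlaps, transcript lengths and GC content. Promoter windows came from RefSeq (GRCh38.p14).

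Genes with a mean above 1 FPKM were fitted on log2(FPKM + 0.1), a scale that understates changes of low genes, with limma 3.58.1 in R 4.3.3 (trend in the prior variance, no replicate block, Benjamini-Hochberg adjustment over 13246 genes). Calls needed a difference of at least 2-fold and an adjusted p under 0.01. The deviations of same-numbered libraries from their groups correlated at −0.0904, so the labels' replicate numbers, the only basis of the block, were not taken as pairs. Log2 values correlated at 0.976 between the WT and 0.980 between the TXNDC9-KO replicates. The length and GC correction was a loess curve per library (span 0.3). Other alternatives were pseudocounts of 1 and 0.01, no filter or a mean above 5 FPKM, an adjusted p under 0.05, TPM, median centring, no trend, the replicate block and leaving out each library. The fits were tested on simulated data. The files hold no counts, so the depth is unknown, and no counting intervals or detection floors are given.

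The polyamine genes, the gene lists and the markers were chosen with earlier results of these data known, and 2 of the markers are not reported here. Named were all 10 polyamine genes, TXNDC9, the called and the 2 most abundant genes of each role, set pairs of genes (SMOX to PAOX was left out because PAOX is listed at 0 in a library), and the 3 tested genes nearest in profile to the polyamine genes with the largest fall and rise. Overlapping genes and copies were looked up for these. Tables and plots were made with pandas 2.3.3, scipy 1.17.1, numpy 2.4.6 and matplotlib 3.10.9 in Python 3.11.15.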

Additional observations from a re-analysis of the deposited data

How the results depend on the processing

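The 9 tested polyamine genes kept their direction under pseudocounts of 1 and 0.01, the filters, the looser threshold, centring, no trend, the replicate block and each left-out library. ODC1 changed sign under TPM (0.43), and OAZ2 under TPM (0.55) and after the length and GC correction, with and without the replicate block (0.29 in each). The replicate block gave 2146 lower and 1960 higher genes and changed the call of no polyamine gene. TPM gave 447 lower and 4380 higher genes (3.4% and 33.1% of those tested), 3 higher polyamine genes, and 0 lower and 9 higher genes around the pathway. The length and GC correction gave 969 lower and 841 higher genes (975 and 841 with the replicate block), 0 higher polyamine genes, and 1 lower and 1 higher gene around the pathway, with and without the block. Of all genes fitted after this correction, 7.39% were lower and 6.41% higher without the block. Centring gave 8 lower genes around the pathway, where 19.6% of all tested genes were lower, and a mean above 5 FPKM gave 1220 higher genes. Without 1 library, 0 to 2633 genes were lower and 0 to 2136 higher, 0 to 3 polyamine genes lower and 0 to 1 higher, and 0 to 7 genes around the pathway lower and 0 to 4 higher. The 0 came from leaving out either TXNDC9-KO library, which left 1 library in that group, assumed to vary like the WT libraries. The fit without a filter had a majority of genes with no variance, and its p-values are unreliable. The causes of these shifts were not tested. With 2 libraries in each group and an unknown depth, the differences of ODC1, OAZ2 and SAT1 were not settled, and PAOX could not be compared.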

Other observations

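The tested gene whose profile over the 4 libraries was nearest to that of SRM was C9orf142, at 136.8 and 183.6 FPKM in WT and 33.1 and 36.5 FPKM in TXNDC9-KO. Its distance from SRM was 0.0289, the Euclidean distance between log2(FPKM + 0.1) values after each gene was centred on its own mean. GADD45GIP1 (distance 0.0495), a mitochondrial ribosome protein, was 264.0 and 356.5 FPKM in WT and 66.9 and 69.9 FPKM in TXNDC9-KO, and the readthrough gene MSH5-SAPCD1 (0.0710) was 5.10 and 7.26 against 1.23 and 1.26 FPKM. These genes were lower in both TXNDC9-KO libraries and, like SRM, higher in WT replicate 2 than in WT replicate 1.

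The profiles nearest to AZIN1 were those of the long noncoding RNA HCG11 (distance 0.0158), RPRD2 (0.0211) and RALGAPB (0.0240). HCG11 was 4.86 and 4.32 FPKM in WT and 11.7 and 12.2 FPKM in TXNDC9-KO, RPRD2 was 5.95 and 5.26 against 14.3 and 15.2 FPKM, and RALGAPB was 6.43 and 5.71 against 15.7 and 16.4 FPKM. Like AZIN1, they were lower in WT replicate 2 than in WT replicate 1. A likeness over 4 libraries of 2 groups is a description and was not tested.

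Of the other genes of the list, the cationic amino acid carrier SLC7A1 was 14.6 and 12.1 FPKM in WT and 23.2 and 23.7 FPKM in TXNDC9-KO, and the deacetylase HDAC10, which acts on acetylspermidine, 20.1 and 21.2 against 10.4 and 10.2 FPKM. SLC7A1 was 1.75-fold higher and HDAC10 1.995-fold lower (limma, Benjamini-Hochberg adjusted p = 0.00241 and 7.26e-04), both under the fold threshold. Under TPM SLC7A1 was at 1.49 and HDAC10 at −0.32 on the log2 scale. After the length and GC correction SLC7A1 was at 0.40 and HDAC10 at −0.14, and neither was called. These genes were chosen after their values were seen, and HDAC10 overlaps MAPK12 on the same strand, which was 26.2 and 29.3 FPKM in WT and 11.99 and 13.97 FPKM in TXNDC9-KO.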
